A study of Homo sapiens with 3 samples.

Results

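Metallothioneins and zinc transporters were followed across the arrays of a study of imiquimod-activated macrophages. The probes were those whose gene name in the scanner files was MT1E, MT1F, MT1G, MT1H, MT1M, MT1X, MT2A, SLC39A8, SLC39A14, or SLC30A1. These 10 genes had 14 of the 58201 transcript probes and were 10 of the 43317 gene names on the array. The rule itself uses only the names and no measured value. All cells were THP-1, a human monocytic leukemia line, differentiated into macrophages with 100 ng/ml of the phorbol ester PMA for 24 to 36 h and rested overnight in fresh medium. Ctrl was the macrophages without IMQ, IMQ was the macrophages given imiquimod, a ligand of toll-like receptors, and IMQ+DMD was the macrophages given DMD and then IMQ. DMD is a dimethoxylated methylbenzenediol from the fungus Antrodia cinnamomea. In the labels the last group is IMQ+X, and X was taken to be DMD, the sole other compound that they name. All 3 groups are labelled 4 h, with no dose of IMQ or DMD for these arrays. The methods describe a longer exposure of such macrophages to IMQ, and the labels were followed. Each group was 1 one-color array of 1 RNA sample, so no difference has a replicate check and no p-value is given. THP-1 is 1 leukemia line, and fewer cells cannot be told apart from less RNA per cell in such bulk RNA.

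Metallothioneins are small cysteine-rich proteins that bind zinc and copper, and their genes are among the most inducible by zinc and other heavy metals. Free zinc in the nucleus is sensed by the transcription factor MTF1, which binds metal response elements in the promoters of the metallothioneins and of SLC30A1. SLC30A1 (ZnT1) carries zinc out of the cell, whereas SLC39A8 (ZIP8) and SLC39A14 (ZIP14) carry zinc, manganese, and iron into the cytosol. In macrophages, inflammatory signals are known to change zinc import, and metallothioneins buffer the metal that enters.

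The 7 metallothionein genes lie side by side on chromosome 16 and their transcripts are alike, so the probe sequences are needed to read their values. The probes are 60 bases long, and their positions are those of the scanner files (build hg19, + strand here). Probes 1 and 2 of MT1E overlap by 30 bases at chr16:56660883-56660912. Within the overlap they differ at 1 position, A29T, counted from the 5′ end of the overlap with the base of probe 1 first. The shared 30 bases are shown with that position in capitals, because the pair of probes moved differently after IMQ.
MT1E probe 1: atgtgggaacagctcttctcccagatgtAa
MT1E probe 2: atgtgggaacagctcttctcccagatgtTa
The accessions listed for probe 2 belong to MT1E, MT1M, and MT1JP, and those for probe 1 to MT1E alone.

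The last 30 bases of 6 probes are shown next, because 4 of them end in the same 9 letters, while MT2A and MT1M, on which the results also turn, do not. Capitals mark that shared end, GGATTTTTT, which 42 of the 58201 probes (0.0722%) held anywhere and 5 of 19 metallothionein probes held.
MT1E probe 2, chr16:56660913-56660942: atagaacaacctgcacaacctGGATTTTTT
MT1F, chr16:56693107-56693136: cagagagacatgtacaaacctGGATTTTTT
MT1X, chr16:56717992-56718021: tagagcaacctatataaacctGGATTTTTT
MT1H, chr16:56704932-56704961: cagaatgacacgtaaaatccaGGATTTTTT
MT2A, chr16:56643362-56643391: ctttttctatgaaataatgtgaatgataat
MT1M, chr16:56667840-56667869: gcatttctttttatgttaaatatgtgagtg
The whole MT1F and MT1X probes were identical at 49 of 60 aligned bases (81.7%). MT1E probe 1 matched the probe of MT1B at 49 of 59 bases (83.1%) and that of MT1L at 38 of 42 (90.5%). The best match of the MT2A probe to another metallothionein probe was 29 of 54 bases (53.7%), with MT1M. How much of a probe's signal came from a related transcript was not tested.

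Promoters of 3 genes are shown because metallothioneins and SLC30A1 are known to share a regulator. They are the 250 bases before the start of the gene, from RefSeq on GRCh38.p14 and on the strand of the gene. Capitals mark TGCACNC or TGCGCNC on either strand, the core letters of the metal response element, where N is any base. No match overlapped another in the windows shown.
MT2A, chr16:56608334-56608583, + strand: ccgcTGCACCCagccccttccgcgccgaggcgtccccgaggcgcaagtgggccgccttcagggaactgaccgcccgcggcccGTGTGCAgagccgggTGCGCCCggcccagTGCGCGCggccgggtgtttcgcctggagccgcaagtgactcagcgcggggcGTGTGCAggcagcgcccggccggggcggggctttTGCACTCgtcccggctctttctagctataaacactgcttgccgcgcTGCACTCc
MT1X, chr16:56682220-56682469, + strand: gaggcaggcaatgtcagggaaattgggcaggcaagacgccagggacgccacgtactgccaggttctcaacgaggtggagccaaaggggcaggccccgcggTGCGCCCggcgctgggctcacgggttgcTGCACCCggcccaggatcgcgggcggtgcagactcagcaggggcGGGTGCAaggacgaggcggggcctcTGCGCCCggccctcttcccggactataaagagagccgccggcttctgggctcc
SLC30A1, chr1:211579162-211579411, - strand: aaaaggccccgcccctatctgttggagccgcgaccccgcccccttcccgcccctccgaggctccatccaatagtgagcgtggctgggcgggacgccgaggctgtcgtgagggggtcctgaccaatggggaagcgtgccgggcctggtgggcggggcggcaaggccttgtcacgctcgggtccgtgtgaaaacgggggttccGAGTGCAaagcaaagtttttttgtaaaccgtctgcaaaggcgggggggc
There were 7 matches for MT2A, 4 for MT1X, and 1 for SLC30A1. The MT1H window (chr16:56669564-56669813, + strand) held 8, and the windows of 3 SLC39A8 starts held 0, 0, and 1. The MTF1 window held 0. Of 35116 promoter windows of this length, 24.8% held at least 1 match, 1.58% at least 3, and 0.12% at least 5. Promoter entries were matched for 5 of the 10 genes, and MT1E, MT1F, MT1G, MT1M, and SLC39A14 are named only.

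By the marks of the scanner software, 72.0%, 66.6%, and 71.9% of transcript probes were well above background on Ctrl, IMQ, and IMQ+DMD, and no spot was saturated (0 on each array). Of the macrophage markers, 6 of 8 had a probe under that name, and all 6 (CD14, ITGAM, CSF1R, SPI1, CD163, TYROBP) were well above background on every array. Their summed normalized intensity was 0.311% to 0.384% of all probes, against 0.0039% to 0.0048% for the 10 markers of T cells, B cells, keratinocytes, fibroblasts, epithelium, endothelium, and NK or nerve cells. EPCAM was not well above background on any array. NCAM1, a marker of NK and nerve cells, was listed at log2 5.14, 8.21, and 7.56 on Ctrl, IMQ, and IMQ+DMD, and KRT5 at 5.32, 4.15, and 5.68, with the IMQ value not well above background. MS4A1, a B-cell marker, was 6.67, 6.38, and 7.29. The part of these markers in the results below was not tested. As a check of the IMQ label, the 5 response genes TNF, IL1B, CXCL8, NFKBIA, and TNFAIP3 were read, and all were 1.93 to 6.16 log2 units higher on the IMQ array than on Ctrl.

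**Figure D1:**
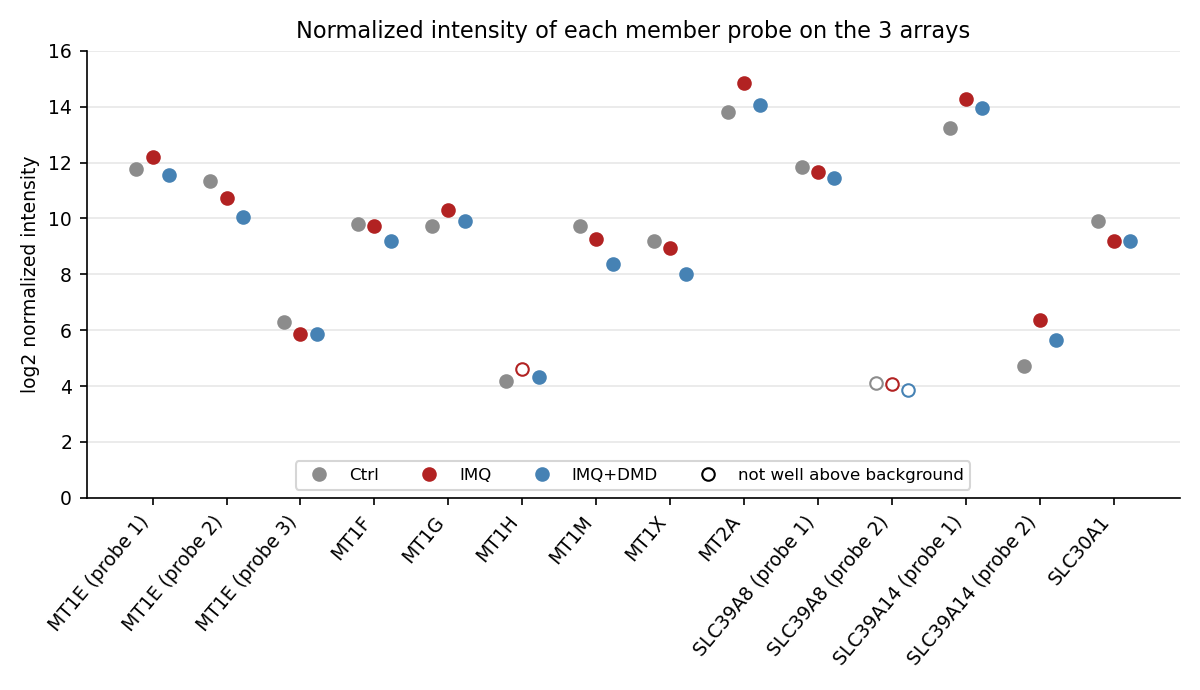
Log2 normalized intensity of the 14 probes (x axis, by gene) on the Ctrl, IMQ, and IMQ+DMD arrays, 1 point per array, with open points for spots not well above background. MT2A and SLC39A14 probe 1 were brightest on the IMQ array, MT1M and MT1X were lowest on the IMQ+DMD array, and SLC30A1 was highest on the Ctrl array.

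After IMQ, the metallothioneins split. MT2A, the most widely expressed metallothionein, was about double, while MT1M, MT1X, and MT1F were not higher. Among the transporters, the importer SLC39A14 was about double and the exporter SLC30A1 was lower. All values are log2 of the quantile-normalized intensity that the authors deposited, in the order Ctrl, IMQ, IMQ+DMD, and a difference of 1 is 2-fold. Each difference is followed by a technical SD, which combines the SD of repeated spots at that brightness on the arrays compared and leaves out the spread between cultures.

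MT2A (A_23_P106844, chr16:56643332-56643391) was 13.79, 14.86, and 14.06. The linear intensities were 14207, 29733, and 17128, so the IMQ array stood above both others. IMQ was higher than Ctrl by 1.07 (2.09-fold, technical SD 0.06), and 3.67% of the 42360 probes compared were at least as far above Ctrl. MT1G (A_33_P3233645, chr16:56700694-56700752, - strand), which is well known for its induction by zinc, was 9.74, 10.32, and 9.89. It was also highest on the IMQ array, 0.57 above Ctrl (1.49-fold, technical SD 0.07), or 0.31 with spike-in scaling and 0.17 without normalization.

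MT1E gave unlike answers by probe. Probe 1 (A_23_P206724, chr16:56660853-56660912), the brightest and the one that stands for the gene, was 11.77, 12.20, and 11.56, and IMQ was 0.43 above Ctrl (technical SD 0.06). Probe 2 (A_21_P0000671, chr16:56660883-56660942), which shares 29 of 30 overlapping bases with it, was 11.34, 10.73, and 10.05, and IMQ was below Ctrl (log2 difference -0.61, technical SD 0.07). The probes thus differed in direction by more than the noise of repeated spots. Probe 3 (A_23_P420942, chr16:56660614-56660673), listed for a predicted transcript, was dim at 6.30, 5.85, and 5.88, with a log2 difference between IMQ and Ctrl of -0.45 (technical SD 0.27).

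The 3 other measured metallothioneins were not higher after IMQ by the probes under their names. MT1M (A_23_P66241, chr16:56667810-56667869) was 9.74, 9.27, and 8.39, a difference of -0.48 between IMQ and Ctrl (technical SD 0.07). MT1X (A_33_P3236868, chr16:56717962-56718021) was 9.18, 8.96, and 8.03, a difference of -0.23 (technical SD 0.08). Both were highest in Ctrl and lowest in IMQ+DMD. MT1F (A_23_P15174, chr16:56693077-56693136) was 9.79, 9.74, and 9.17, and its difference of -0.05 was within its technical SD of 0.07, but became -0.33 with spike-in scaling and -0.46 without normalization. MT1H (A_33_P3368313, chr16:56704902-56704961) was near the background at 4.17, 4.63, and 4.33. Its spot was not well above background on the IMQ array, so no difference was taken there, and IMQ+DMD and Ctrl differed by 0.16 with a technical SD of 0.44.

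Among the zinc importers, SLC39A14 probe 1 (A_23_P59950) was 13.25, 14.27, and 13.96, with linear intensities of 9764, 19725, and 15956. IMQ was 1.01 above Ctrl (2.02-fold, technical SD 0.06), and IMQ+DMD lay between the others. Its dimmer probe 2 (A_24_P383356), whose match spans more than 60 bases of genome, was 4.71, 6.36, and 5.63, and IMQ was 1.65 above Ctrl (3.14-fold, technical SD 0.35), or 0.75 with normexp and 1.03 without normalization. Both probes had the same order of arrays. SLC39A8 probe 1 (A_23_P41424, chr4:103182951-103183010, - strand) was 11.84, 11.65, and 11.43, and IMQ differed from Ctrl by -0.19 (technical SD 0.06). Its probe 2, for another transcript, was not well above background on any array and was not compared.

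SLC30A1 (A_23_P23815, chr1:211748842-211748901, - strand), the exporter at the cell surface, was 9.90, 9.18, and 9.20. Ctrl stood above both treated arrays, which differed from each other by 0.02 (technical SD 0.07). IMQ was below Ctrl (log2 difference -0.72, 1.65-fold lower, technical SD 0.07), the opposite direction to MT2A. The RNA of MTF1, known to act on both genes, was 9.92, 10.88, and 10.85. Its log2 difference was 0.96 between IMQ and Ctrl and -0.02 between IMQ+DMD and IMQ. The activity of MTF1 was not measured, and its part in these values was not tested.

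By gene, 2 of the 9 compared were at least 2-fold higher on IMQ than on Ctrl, namely MT2A and SLC39A14, and 0 were at least 2-fold lower. Over all 32747 genes compared, 4.06% were at least 2-fold higher and 3.49% at least 2-fold lower. At 1.5-fold, 2 of 9 were higher and 1 lower (SLC30A1), against 10.4% and 10.4% of all genes. The median difference of the 9 was -0.05, and of all genes -0.01. The 2-fold calls sit close to the threshold: with spike-in scaling or no normalization between arrays, MT2A was 0.87 or 0.74 above Ctrl and SLC39A14 probe 1 was 0.82 or 0.69 above, while SLC30A1 passed 2-fold at -1.02 or -1.15.

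**Figure D2:**
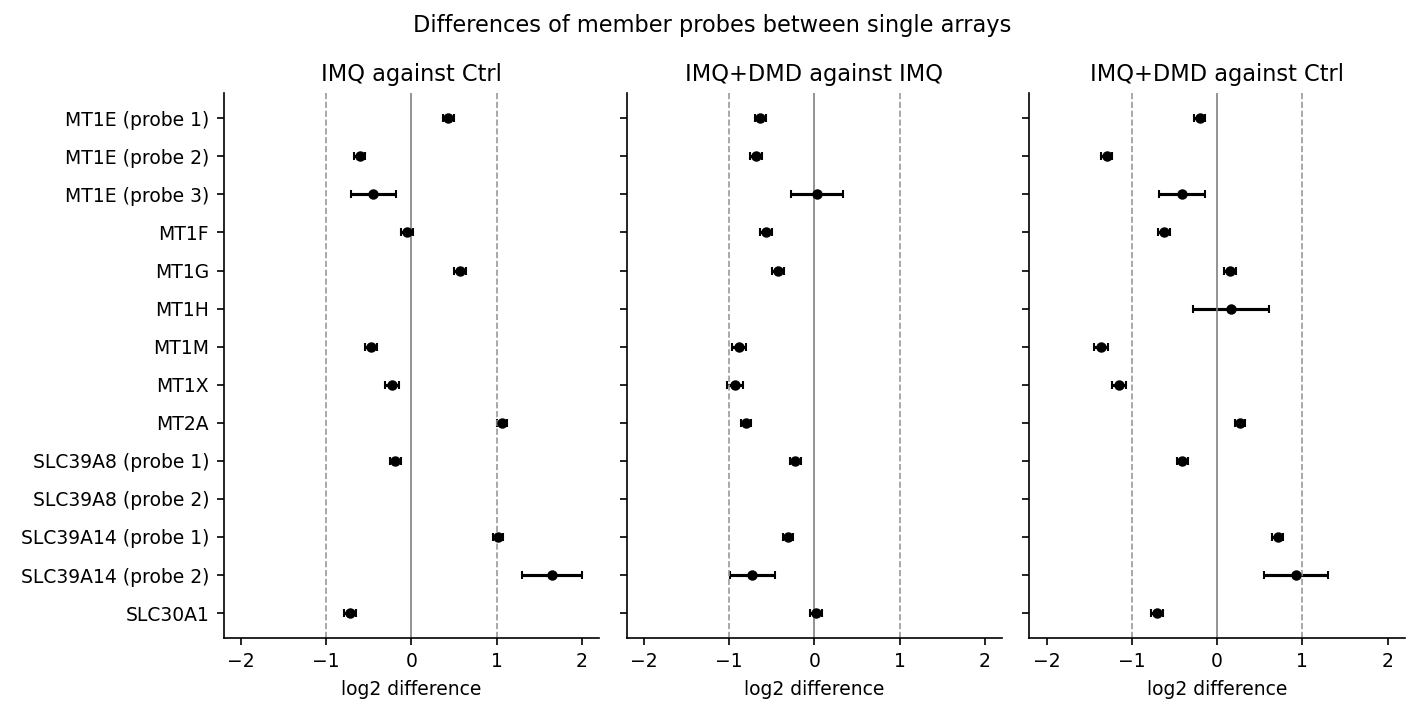
Log2 difference of each probe (x axis, points, with technical SD bars) for IMQ against Ctrl, IMQ+DMD against IMQ, and IMQ+DMD against Ctrl; dashed lines mark 2-fold. In the middle panel the metallothionein points lie between -0.93 and 0.03, and MT1H and SLC39A8 probe 2 are absent where they were not compared.

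With DMD before IMQ, the metallothioneins were lower together. All 6 metallothioneins compared were below their level with IMQ alone, with differences from -0.42 to -0.93 and a median of -0.72. None reached 2-fold. MT1X was below IMQ (log2 difference -0.93, 1.90-fold lower, technical SD 0.09), with intensities of 497 on IMQ and 261 on IMQ+DMD. MT1M was lower by a log2 difference of -0.88 (1.84-fold, technical SD 0.08), and MT2A by -0.80 (1.74-fold, technical SD 0.06). MT1E differed by -0.64 (probe 1) and -0.68 (probe 2), so the overlapping probes that disagreed after IMQ moved alike here. MT1F differed by -0.57 (technical SD 0.07) and MT1G by -0.42 (technical SD 0.07). MT1E probe 3 was an exception at 0.03, within its technical SD of 0.30.

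For the zinc transporters the values were closer to 0 by the brightest probe of each gene. SLC39A8 differed between IMQ+DMD and IMQ by -0.22 (technical SD 0.06), SLC39A14 by -0.31 for probe 1 (technical SD 0.06) and -0.73 for probe 2 (technical SD 0.27), and SLC30A1 by 0.02. The difference of SLC30A1 was within its noise, and that of SLC39A14 probe 2 lay within the metallothionein range. SLC39A14 probe 1 on IMQ+DMD was 0.71 above Ctrl, which became 0.33 with spike-in scaling and 0.25 without normalization.

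Of the 9 genes compared, 0 were at least 2-fold lower or higher on IMQ+DMD than on IMQ, against 1.22% and 1.15% of the 32556 genes compared. At 1.5-fold, 4 of 9 were lower (MT1E, MT1M, MT1X, and MT2A) and 0 higher, against 5.31% and 6.49% of all genes. Dim probes vary more, so the same count was taken over genes with log2 of at least 8 on both arrays, a limit set after the values were seen. All 9 genes passed that limit, so 4 of 9 were at least 1.5-fold lower, against 0.894% of 13865 genes, and 0 of 9 were at least 1.5-fold higher, against 1.28%. The median of all genes compared was -0.00, and that of the 9 genes -0.57.

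Relative to Ctrl, the metallothioneins on IMQ+DMD did not lie at a common point. MT2A on IMQ+DMD remained 0.27 above Ctrl (technical SD 0.06) and MT1G 0.15 above (technical SD 0.07). MT1M and MT1X, which were not higher after IMQ, ended below Ctrl at log2 differences of -1.36 and -1.15 (2.56-fold and 2.23-fold lower, technical SD 0.08 each). MT1F ended below Ctrl, with a log2 difference of -0.62 (technical SD 0.07), and MT1E ended at -0.20 by probe 1 and -1.29 by probe 2. By gene, 2 of 10 were at least 2-fold lower than Ctrl and 0 higher, against 4.83% and 3.04% of 33715 genes. At 1.5-fold, 4 of 10 were lower (MT1F, MT1M, MT1X, and SLC30A1) and 1 higher (SLC39A14), against 11.5% and 9.76%, and SLC39A14 was under 1.5-fold with spike-in scaling and without normalization. The small excess of MT2A and MT1G over Ctrl turned to -0.09 and -0.24 with spike-in scaling and to -0.17 and -0.31 without normalization. These comparisons share arrays, so a high or low value on 1 array enters 2 of them.

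**Figure D3:**
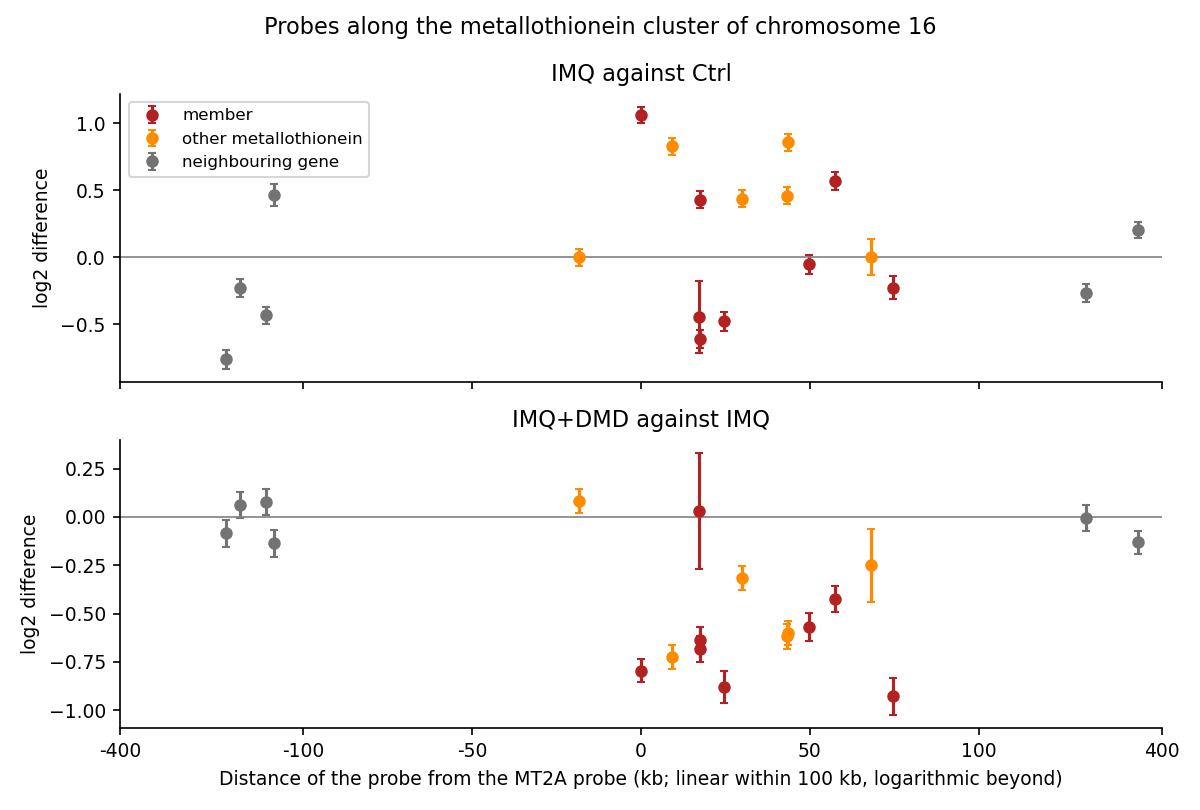
Log2 difference (y axis, with technical SD bars) of each compared probe along chromosome 16, by distance from the MT2A probe in kb, for IMQ against Ctrl (top) and IMQ+DMD against IMQ (bottom); the x axis is linear within 100 kb and logarithmic beyond. In the bottom panel the metallothionein probes lie between -0.93 and -0.25, apart from MT3 and MT1E probe 3, whereas the probes of the 5 neighbouring genes lie between -0.14 and 0.08.

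The other metallothioneins of the array were listed beside the members. Of 12 listed, 8 had a probe under that name and 6 were compared. By the brightest probe of each, MT1B, MT1L, MT1HL1, and MT1A were 0.86, 0.83, 0.65, and 0.44 higher on IMQ than on Ctrl. On IMQ+DMD against IMQ they were -0.60, -0.72, -0.62, and -0.32. The dimmer MT1B probe was 0.46 above Ctrl on IMQ, and -0.62 on IMQ+DMD against IMQ. For IMQ+DMD against Ctrl the MT1B probes differed in direction, at 0.26 for the brighter and -0.16 for the dimmer (technical SD 0.06 each). The probe of MT1HL1 also lists an accession of MT1H, and it was bright at 11.97 on Ctrl and 12.62 on IMQ, with IMQ+DMD 0.03 above Ctrl, where the probe named MT1H was near background. Likewise, the probe of MT1A lists an accession of MT1M. It was 13.41, 13.85, and 13.53, with IMQ+DMD 0.12 above Ctrl, where the probe named MT1M was below Ctrl on both treated arrays. The pseudogene MT1IP was 7.17, 7.17, and 6.92. MT3, known as the brain metallothionein and far less metal-inducible, was 12.38 on Ctrl, 12.38 on IMQ, and 12.46 on IMQ+DMD. MT4 and MT1DP were not well above background on any array.

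Over the 12 metallothioneins compared, 11 were lower on IMQ+DMD than on IMQ, where 16432 of 32556 genes were below 0. The median of the 12 was -0.61. MT3 was the exception at 0.08 (technical SD 0.06), but its raw intensity was 4989 on IMQ and 4856 on IMQ+DMD. The difference of MT1IP was -0.25 with a technical SD of 0.19. For IMQ against Ctrl, 8 of the 12 were above 0, with a median of 0.43, where 16107 of 32747 genes were above 0. MT3 is among these 8 at only 0.0006, within its technical SD of 0.06. Some of the 12 probes are alike in sequence or list an accession of another metallothionein, so these counts may not be of separate readings. The genes on both sides of the cluster did not share the lower level on IMQ+DMD. NUDT21, OGFOD1, BBS2, NUP93, and HERPUD1, placed from -162 to 334 kb of the MT2A probe, differed by -0.14 to 0.08 between IMQ+DMD and IMQ when counted by the brightest probe of each gene. Their differences between IMQ and Ctrl ran from -0.43 to 0.47, and the dimmer NUDT21 probe was at -0.76.

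**Figure D4:**
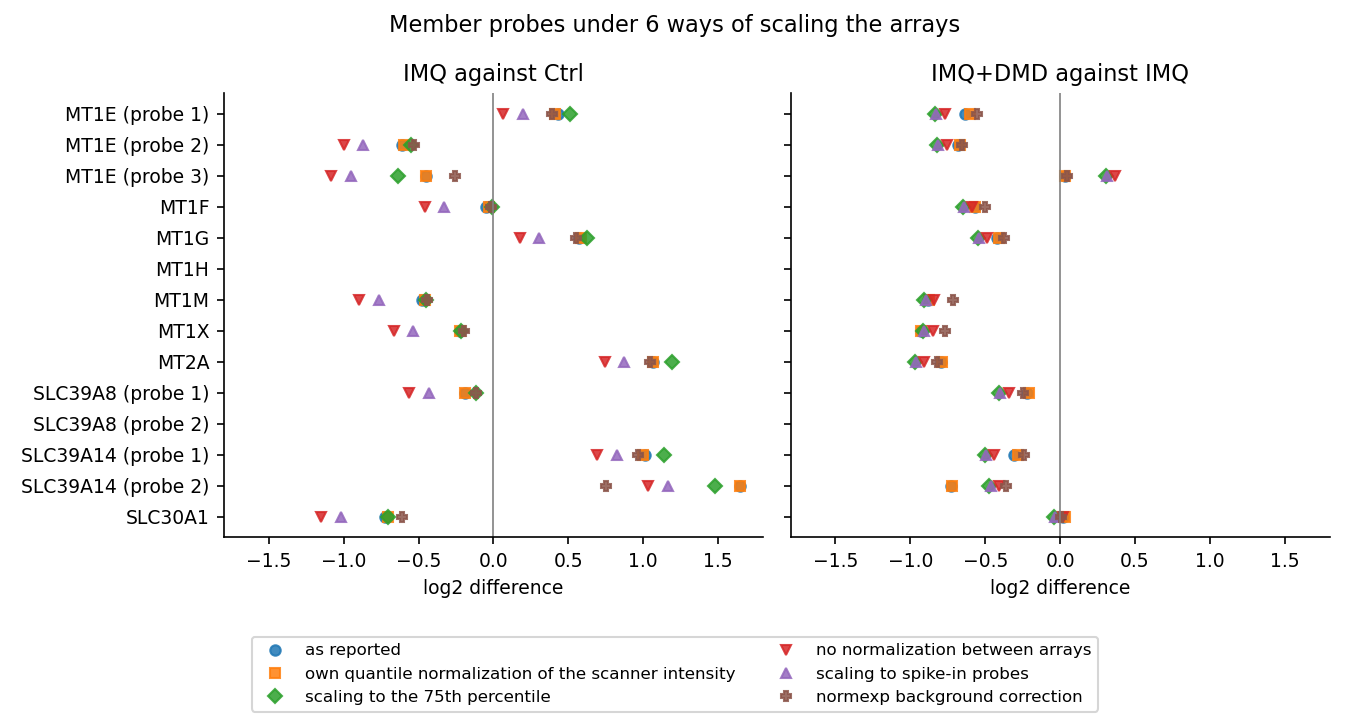
Log2 difference of each probe (x axis) for IMQ against Ctrl (left) and IMQ+DMD against IMQ (right) under 6 ways of scaling the arrays, 1 symbol for each. In the right panel MT1E probes 1 and 2, MT1F, MT1G, MT1M, MT1X, and MT2A stay at or below -0.37 under all 6, and in the left panel spike-in scaling and no normalization shift every compared probe to the left.

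The other zinc transporters were read as lists. Of the 12 other ZIP importers, 0 were at least 2-fold different in any comparison, where 1.15% to 4.83% of all genes were so in each direction, and their median between IMQ+DMD and IMQ was -0.08. Of the 10 other ZnT transporters, 1 passed 2-fold in any comparison. TMEM163, a zinc efflux protein, was at least 2.15-fold higher on IMQ+DMD than on IMQ, with listed levels of 4.96, 4.25, and 5.68 and the IMQ spot not well above background. The zinc-binding S100 proteins S100A8, S100A9, and S100A12, which withhold zinc from microbes, were lower on IMQ than on Ctrl by log2 differences of -0.57, -0.49, and -0.27.

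Among 7 copper genes, SLC31A2, a low-affinity copper transporter, was 12.70, 14.11, and 13.99, a difference of 1.41 between IMQ and Ctrl and -0.12 between IMQ+DMD and IMQ. Of 8 iron and manganese genes, 0 passed 2-fold in any comparison by the brightest probe of each gene, against the same shares of all genes. A dimmer probe of SLC11A1 did pass, at 7.83, 7.30, and 6.75. On it IMQ+DMD was 2.12-fold below Ctrl (log2 difference -1.08, technical SD 0.19), where the brightest SLC11A1 probe differed by -0.49. The largest differences between IMQ and Ctrl in that list were 0.96 for TFRC, the transferrin receptor, and 0.91 for SLC11A2, the divalent metal importer DMT1.

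The stress genes that heavy metals induce beside the metallothioneins went the other way with DMD. All 7 were higher on IMQ+DMD than on IMQ, by 0.14 to 0.71, with a median of 0.39, where 16088 of 32556 genes were above 0. These values hold for the deposited normalization, and this list was not read under other scalings. The raw intensities of DNAJB1 were close, at 2814 on IMQ and 2843 on IMQ+DMD. Those of HSPA1B were 3538 and 3655. HMOX1, which breaks down heme, was 15.49, 16.68, and 17.38, a difference of 1.19 between IMQ and Ctrl and 0.71 between IMQ+DMD and IMQ. TXNRD1, thioredoxin reductase, was 9.25, 11.18, and 11.89, with differences of 1.93 and 0.71, and SLC7A11, the cystine importer, was 9.66, 14.24, and 14.64, with differences of 4.59 and 0.39. All 3 were highest on IMQ+DMD, where MT2A, MT1M, and MT1X were lower than on IMQ. At 1.5-fold, 2 of the 7 were higher on IMQ+DMD than on IMQ, against 6.49% of all genes, and at 2-fold 0 were, against 1.15%. All 7 had log2 of at least 8 on both arrays, the limit set after the values were seen. Over the genes that passed it, the shares were 1.28% and 0.0793%.

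The genes nearest to the metallothionein medians were DUSP19, TOX, SNORA41, JAK3, and FLYWCH2, among 18327 other named genes measured above background in every group. Likeness was the distance between a gene's IMQ against Ctrl and IMQ+DMD against IMQ differences and the metallothionein medians of 0.19 and -0.72, and it ran from 0.02 to 0.04. It rests on 3 arrays and 2 differences. The medians summarize a split group, since the metallothioneins compared ran from -0.48 to 1.07 for IMQ against Ctrl. Nearness to the medians is therefore not nearness to a single metallothionein. All 5 were dim, with log2 levels between 4.50 and 7.09, where repeated spots vary more.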

How the data were processed

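RNA was amplified and Cy3-labeled, and each sample was hybridised to 1 one-color array, with all 3 arrays on 1 slide. The authors deposited scanner output (Feature Extraction 10.5.1.1, build hg19) and a table of raw intensity and quantile-normalized intensity per probe, with a text detection call per sample. The detection calls the authors deposited were not used. The normalized intensity was converted to log2. A difference was taken where the brighter of its arrays was well above background. A dimmer spot below that mark was raised, if lower, to the faintest value that passed it on that array (log2 4.04, 4.57, and 4.08). Its fold is then a bound, unless the raised value passes the brighter one, which turns the sign. SLC30A10, at 4.30 on Ctrl and 3.52 on IMQ, was so counted as 0.27 higher on IMQ. Such values are in the counts over all genes. In the deposited normalization no difference of a member probe rested on a raised value. The brightest probe by mean log2 stood for a gene. Technical SDs came from 300 probes with 10 spots each. The counting and differencing steps were run on simulated arrays with planted changes in bright probes. Those changes were larger than most differences read here, so the run does not bear on small differences or dim probes. The number of arrays limits the precision.

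Named genes were all 10 members with every probe, each gene of the other lists at least 2-fold different in any comparison, MTF1, and the 5 genes nearest to the metallothionein medians. Other genes named were chosen after their values were seen. The members and lists were chosen with earlier results of these data known. Of the lists, housekeeping genes differed between IMQ+DMD and IMQ by -0.09 to 0.09. They were less even against Ctrl, at -0.53 to 0.32 for IMQ and -0.62 to 0.37 for IMQ+DMD. CD163 was lower on IMQ than on Ctrl (log2 difference -1.22), and CD14 was lower on IMQ+DMD than on Ctrl (log2 difference -1.21). CD68, LYZ, MT1CP, MT1JP, MT1P1, and MT1P3 had no probe under that name. One neighbouring gene of the cluster is not reported here. Exon and UTR positions were not assigned, since no annotated genome of the build was used here. Tools were R 4.3.3, limma 3.58.1, Python 3.11.15, numpy 2.4.6, pandas 2.3.3, and matplotlib 3.10.9. Alternatives were quantile normalization repeated from the scanner intensity, scaling to the 75th percentile or to 10 spike-in probes, no normalization, normexp with an offset of 50, other filters on dim probes, thresholds of 1.5-fold and 4-fold, and the mean of all probes of a gene.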

Additional observations from a re-analysis of the deposited data

How the results depend on the processing

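The 37 differences of single probes gave 185 values under 5 other scalings, of which 176 kept their direction, 90 moved by more than the technical SD, and 0 of those at 2-fold or more reversed. The 9 that changed sign were SLC30A1 for IMQ+DMD against IMQ, and MT1G, MT1H, and MT2A for IMQ+DMD against Ctrl. Without normalization between arrays, the median of probes well above background on all arrays shifted by -0.49 on IMQ and -0.33 on IMQ+DMD, both against Ctrl, and with spike-in scaling by -0.36 and -0.26. The metallothionein median for IMQ+DMD against IMQ ran from -0.64 (normexp, or no filter on dim probes) to -0.84 (75th percentile). Under 3 scalings MT1H, near background, was compared too and was the sole one not lower.

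For IMQ against Ctrl, 1 member instead of 2 was at least 2-fold different under spike-in scaling or with unscaled arrays (SLC30A1, lower) and under normexp (MT2A, higher), and 0 at 4-fold. For IMQ+DMD against Ctrl, 4 members were at least 2-fold different without normalization and 1 with normexp. There were 5 at 1.5-fold and 0 at 4-fold. For IMQ+DMD against IMQ, 4 were at 1.5-fold. The median difference of the member probes for IMQ against Ctrl was -0.12, and became -0.46 without normalization, -0.33 with spike-in scaling, and -0.037 without a filter on dim probes. For IMQ+DMD against IMQ it was -0.60, and became -0.49 without normalization, -0.44 with normexp, and -0.50 without a filter. For IMQ+DMD against Ctrl it was -0.41, and became -0.33 at the 75th percentile, -0.71 unscaled, -0.64 by spike-ins, -0.22 under normexp, and -0.33 without a filter. The counts stayed at 2, 0, and 2 among genes with log2 of at least 8 on both arrays, a limit chosen after seeing the data. The cause of the shifts was not tested.

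No paired analysis was possible because each group has 1 array, and for the same reason no array could be left out. A slide block was not run, since all arrays share 1 slide. Small differences are limited by the scaling, by the spread between cultures, which was not measured, and by spot noise, with a technical SD of 0.27 to 0.44 for the dim probes of MT1E, MT1H, and SLC39A14 and 0.06 to 0.09 for all others compared.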
